A study of Mus musculus with 15 samples.

Results

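H3K4me1 and H3K4me2 were compared region by region in control αTN4 cells. The members were the 38007 H3K4me1 islands and the 66274 H3K4me2 peaks of these cells, 104281 of the 291642 regions in all ChIP-seq lists of the study. An island was counted with a peak, and a peak as inside an island, when at least 1 bp was shared. αTN4 is a mouse lens epithelial cell line transformed with the SV40 T antigen and grown in DMEM F-12 medium with 10% FBS. The control cells stably carried a lentiviral control shRNA selected with puromycin, and the Pax6 knockdown cells, used here only as a side readout, carried an shRNA against Pax6 in the same way, so that all αTN4 groups were transduced pools and none was the untreated line. H3K4me2 of newborn (P1) CD-1 mouse lens was a further side readout, and the study asked how Pax6, a transcription factor of eye development, relates to H3K4 methylation. Each mark in each condition was a single list from 1 library, and the islands held 3289553 ChIP reads. The peak names hold the word bothreps, so replicates may have been pooled before calling, and no spread between replicates could be given. All intervals below are 95% intervals for counting error only.

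Methyl groups on lysine 4 of histone H3 are added in steps by Mll and Set1 enzymes. In general, H3K4me3 sits at the start of active genes, H3K4me1 spreads over enhancers and the flanks of promoters, and H3K4me2 is found at both. The intermediate mark is also often enriched where transcription factors bind. Distances below are to the nearest transcription start site (TSS) of a protein-coding transcript. A peak is called a TSS peak when its summit was within 2 kb of a TSS, and distal otherwise.

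The 2 ends of the comparison are shown first by their sequence, 200 bases around H3K4me2 summits on the plus strand of mm9. The upper 3 windows hold the strongest peak of each of the 3 islands with the most H3K4me2 peaks. The lower 3 hold the strongest peaks that touched no island. Capitals mark the CpG dinucleotides, which are dense in most mammalian promoters.
Gm20388 island with 24 peaks, chr8:126090145-126090344: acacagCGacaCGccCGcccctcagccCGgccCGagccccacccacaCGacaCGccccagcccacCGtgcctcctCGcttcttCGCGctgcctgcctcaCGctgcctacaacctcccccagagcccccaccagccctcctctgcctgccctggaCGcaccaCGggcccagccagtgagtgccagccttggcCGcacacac
intergenic island with 21 peaks, chr2:128252898-128253097: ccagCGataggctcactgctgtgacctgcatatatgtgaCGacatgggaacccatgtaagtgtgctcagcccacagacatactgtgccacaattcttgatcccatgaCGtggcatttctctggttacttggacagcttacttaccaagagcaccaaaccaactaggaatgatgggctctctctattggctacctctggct
Gm20388 island with 21 peaks, chr8:126125771-126125970: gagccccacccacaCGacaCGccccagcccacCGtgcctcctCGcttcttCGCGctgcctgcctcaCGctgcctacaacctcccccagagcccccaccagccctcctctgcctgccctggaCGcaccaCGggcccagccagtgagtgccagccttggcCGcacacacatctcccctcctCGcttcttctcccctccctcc
Dennd2c start, no island, chr3:102906089-102906288: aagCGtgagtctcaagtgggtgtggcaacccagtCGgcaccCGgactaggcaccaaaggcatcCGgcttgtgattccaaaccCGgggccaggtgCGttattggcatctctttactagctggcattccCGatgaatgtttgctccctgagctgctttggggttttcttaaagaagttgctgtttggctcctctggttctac
Pick1 start, no island, chr15:79060061-79060260: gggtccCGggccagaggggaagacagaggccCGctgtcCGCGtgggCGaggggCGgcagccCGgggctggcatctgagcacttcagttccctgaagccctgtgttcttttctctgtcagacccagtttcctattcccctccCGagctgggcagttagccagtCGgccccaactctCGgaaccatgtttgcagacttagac
Frmd5 start, no island, chr2:121633141-121633340: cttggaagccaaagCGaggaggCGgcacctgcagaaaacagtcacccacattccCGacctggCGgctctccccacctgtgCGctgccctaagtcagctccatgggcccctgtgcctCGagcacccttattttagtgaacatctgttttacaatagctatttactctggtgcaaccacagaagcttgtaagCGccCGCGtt
The windows of the islands with 24 and 21 peaks in Gm20388 held 15 and 11 CpGs, and they shared an identical run of 166 bases. The window of the intergenic island held 3 CpGs. Around the summits at the Dennd2c, Pick1 and Frmd5 starts there were 7, 10 and 9. The word GGGGCGG, read on both strands as a simple match to an Sp1 site, was in the first Gm20388 window and in that of Pick1, and in 2.13% of all summit windows.

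Markers were used to check the label of the cells. H3K4me3 was within 2 kb of a start in 11 of 14 lens lineage genes and 6 of 10 lens epithelium markers. The lens lineage list, mostly transcription factors, also holds the secreted growth factor Bmp4. H3K4me3 was also at 2 of 16 crystallins, 1 of 11 lens fibre genes, 9 of 12 mesenchymal and 1 of 10 epithelial markers. It was at 1 of 8 retina and pigment epithelium markers and 1 of 11 neuron markers. Of blood cell, endothelium and liver markers, 0 of 10, 0 of 7 and 0 of 7 had it. Of all 22232 protein-coding genes, 49.1% had it. Pax6, Six3 and, alone among the crystallins, Cryaa and Cryab carried H3K4me2 and H3K4me3 at their starts. Foxe3, a lens epithelium transcription factor, and Cdh1 and Epcam, genes of epithelial adhesion, had neither mark there. Lens lineage genes thus mostly carried H3K4me3, as did mesenchymal markers, while most crystallins, lens fibre genes and epithelial markers lacked it.

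H3K4me2 was found in most H3K4me1 islands. At least 1 peak was in 29509 of 38007 islands, 77.6% (interval 77.2 to 78.1). Of all islands, 54.3% held 1 peak, 16.3% held 2, 4.42% held 3 and 1.53% held 4. From 5 to 9 peaks were in 372 islands and 10 or more in 26, with a maximum of 24. The remaining 8498 islands, 22.4%, had no H3K4me2 peak. By length, 45.6 Mb lay in both marks, which was 30.5% of the island length and 61.3% of the H3K4me2 peak length. The whole peak lay inside an island for 32897 of the 66274 peaks.

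**Figure D1:**
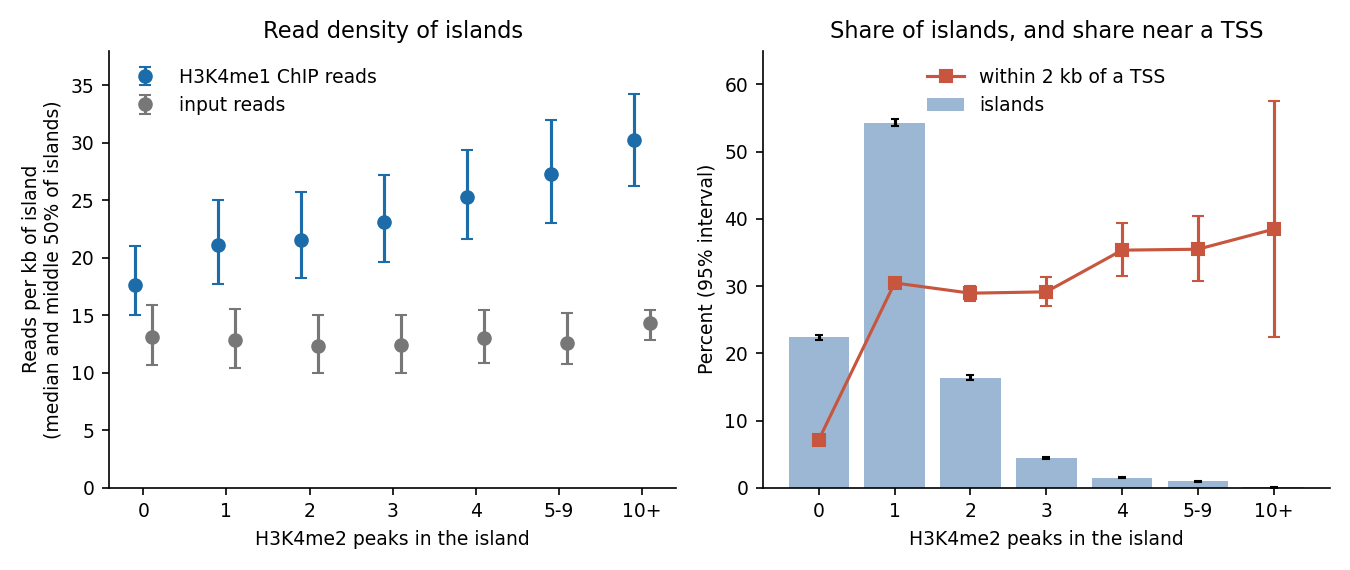
Left, median H3K4me1 ChIP and input reads per kb of island against the number of H3K4me2 peaks in the island, with bars for the middle 50% of islands. Right, bars give each class as a percentage of the 38007 islands and squares the percentage of the class within 2 kb of a TSS, both with 95% intervals. With islands of all widths pooled, ChIP reads per kb rose from 17.7 to 30.2 while input reads per kb stayed between 12.4 and 14.3.

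With islands of all widths pooled, those with more H3K4me2 peaks were denser in H3K4me1 reads. The median was 17.7 ChIP reads per kb (interval 17.5 to 17.7) without a peak, 21.1 with 1, 21.6 with 2, 23.1 with 3, 25.3 with 4, 27.3 with 5 to 9 and 30.2 (interval 26.7 to 33.8) with 10 or more. Input reads per kb, those of the control library of the island call over the same islands, had medians of 13.1, 12.9, 12.4, 12.4, 13.0, 12.6 and 14.3 in the same order. Both densities, here and below, are raw counts that were not scaled to the depth of the libraries. The ChIP densities of neighbouring classes overlapped, since the middle 50% of islands spanned 15 to 21 ChIP reads per kb without a peak and 17.7 to 25 with 1. Islands with a peak had 1.21 times the median ChIP density of those without (21.4 against 17.7). They were also nearer to genes: 30.2% of islands with a peak and 7.18% of those without were within 2 kb of a TSS.

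Width was tied to both quantities. The median island width rose from 2800 bp with no peak or 1 peak to 4400 bp with 2, 14400 bp with 5 to 9 and 38900 bp with 10 or more. Within classes of equal width the density ratio of islands with over without H3K4me2 was 1.00 up to 1 kb, 1.08 from 1 to 2 kb, 1.21 from 2 to 4 kb, 1.40 from 4 to 8 kb 1.53 from 8 to 16 kb and 1.43 above, where only 6 islands had no peak and their median had an interval of 14.9 to 336 reads per kb. The matching input ratios ran from 0.857 to 0.964 up to 16 kb and were 0.592 above. The difference in H3K4me1 was thus present in islands of 1 to 16 kb and not measurable in the narrowest, whose median was 31.3 reads per kb with or without a peak. The rise with the number of peaks depended on width. From 1 to 2 kb the medians were 23.6, 23.1 and 22.6 ChIP reads per kb with 1, 2 and 3 peaks, the last in 6 islands. From 2 to 4 kb they ran from 19.75 with 1 peak to 20.9 with 4. From 8 to 16 kb they ran from 21.1 with 1 peak to 25.9 with 5 to 9. Among islands of 2 to 4 kb, the ChIP density rose with the part of the island inside H3K4me2 peaks, from 17.1 reads per kb where this was under 10% to 22.5 where it was over 50%.

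With TSS and distal peaks pooled, the strength of the H3K4me2 peak was only weakly tied to the H3K4me1 density of its island. In islands with 1 peak, the median was 20 ChIP reads per kb in the lowest quartile of H3K4me2 fold enrichment, then 21.4, 22.1 and, in the highest quartile, 20.6. The order was thus not monotonic, and the quartile with the strongest H3K4me2 did not have the densest islands. In islands with 1 peak, the summit lay outside the island for 41.7% of TSS peaks and 3.36% of distal peaks. The quartiles were not split by position, and the part of position in this order was not tested.

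Of the 66274 H3K4me2 peaks, 42122 were in an island, 63.6% (interval 63.2 to 63.9). The position relative to genes divided them. Distal peaks were in islands in 33375 of 46250 cases, 72.2% (interval 71.8 to 72.6), and TSS peaks in 8747 of 20024, 43.7% (interval 43.0 to 44.4). The difference was -28.5 percentage points (interval -29.3 to -27.7). Peaks outside islands were in consequence nearer to genes, with a median of 3.96 kb to a TSS against 18.4 kb inside.

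The share in islands changed within the promoter region. It was 38.6% for summits up to 0.25 kb from a TSS, 35.9% from 0.25 to 0.5 kb, 42.9% from 0.5 to 1 kb and 59.1% from 1 to 2 kb. From 2 to 5 kb it was 74.8%, and it stayed between 73.3% and 74.1% up to 100 kb. Beyond 100 kb it was 65.5%. The share of the same peaks over an H3K4me3 peak took the opposite course outward from 0.5 kb: 82.4% from 0.5 to 1 kb, 67.2% from 1 to 2 kb and 9.03% from 2 to 5 kb.

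**Figure D2:**
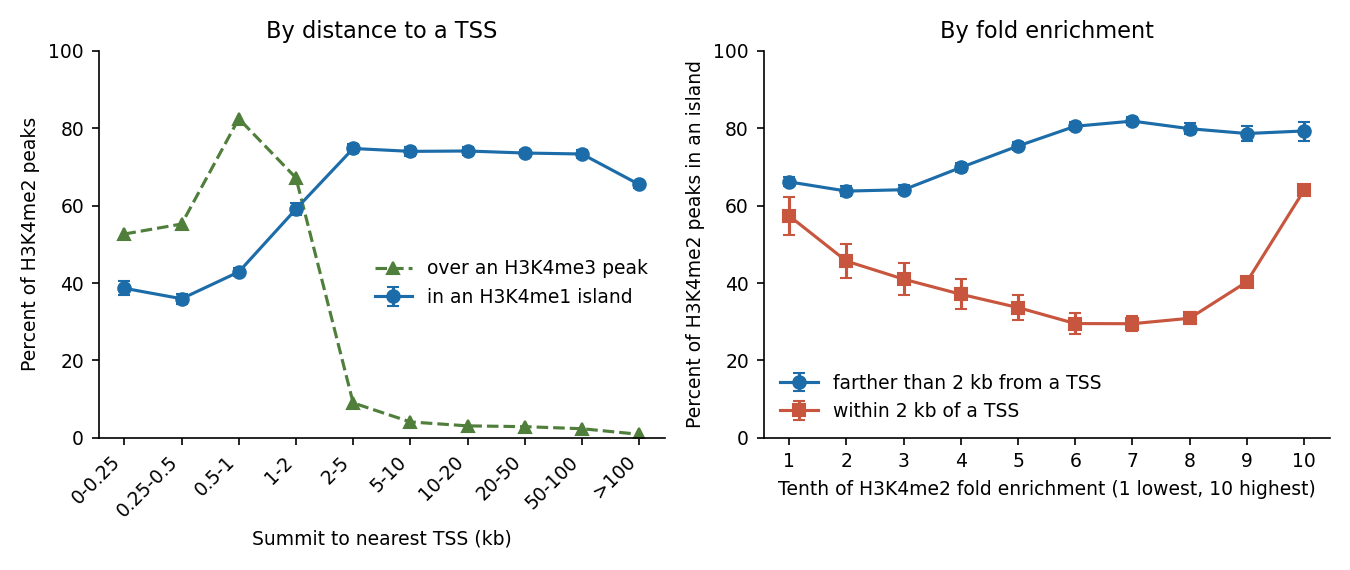
Left, percentage of H3K4me2 peaks in an H3K4me1 island (circles, 95% intervals) and over an H3K4me3 peak (triangles) by distance of the summit to the nearest TSS in kb. Right, percentage of H3K4me2 peaks in an island by decile of H3K4me2 fold enrichment over all peaks, for TSS and distal peaks. The distal share rose from 66.1% in the lowest decile to 79.3% in the highest, and the TSS share fell from 57.3% to 29.5% in the middle and rose again to 64.0%.

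Where a peak met an island, the geometry also differed. The summit itself lay in the island for 97.9% of distal peaks in islands and for 67.2% of TSS peaks in islands, and the whole peak lay inside for 91.1% and 28.7%. In islands with 1 peak whose summit was inside, the distal summit was in the middle 50% of the island in 77.0% of 14283 cases and the TSS summit in 25.7% of 3419. TSS peaks in islands therefore mostly extended past an island edge, and distal peaks mostly sat near the middle.

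Around starts the marks were layered. At 20800 starts with an RNA polymerase II (Pol2) peak within 500 bp, an island covered 9.08% of the start positions themselves, 30.3% of positions 1.5 kb upstream and 43.8% of positions 1.75 kb downstream. H3K4me2 covered 87.7% at 0.5 kb upstream, 50.5% at the start and 93.5% at 0.75 kb downstream. H3K4me3 was highest, 88.6%, at 0.25 kb downstream. From the start downstream the order of the maxima was thus H3K4me3, H3K4me2 and H3K4me1. At the 25140 starts without Pol2, islands covered 10.9% at the start and 8.58% at 5 kb downstream, so the dip at the start was found only at the starts with Pol2 among these 2 groups. H3K4me2 there reached 12.6%. The antibody named for the Pol2 library is the one for Pax6 and the reverse, and both lists were assigned by the sample titles.

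**Figure D3:**
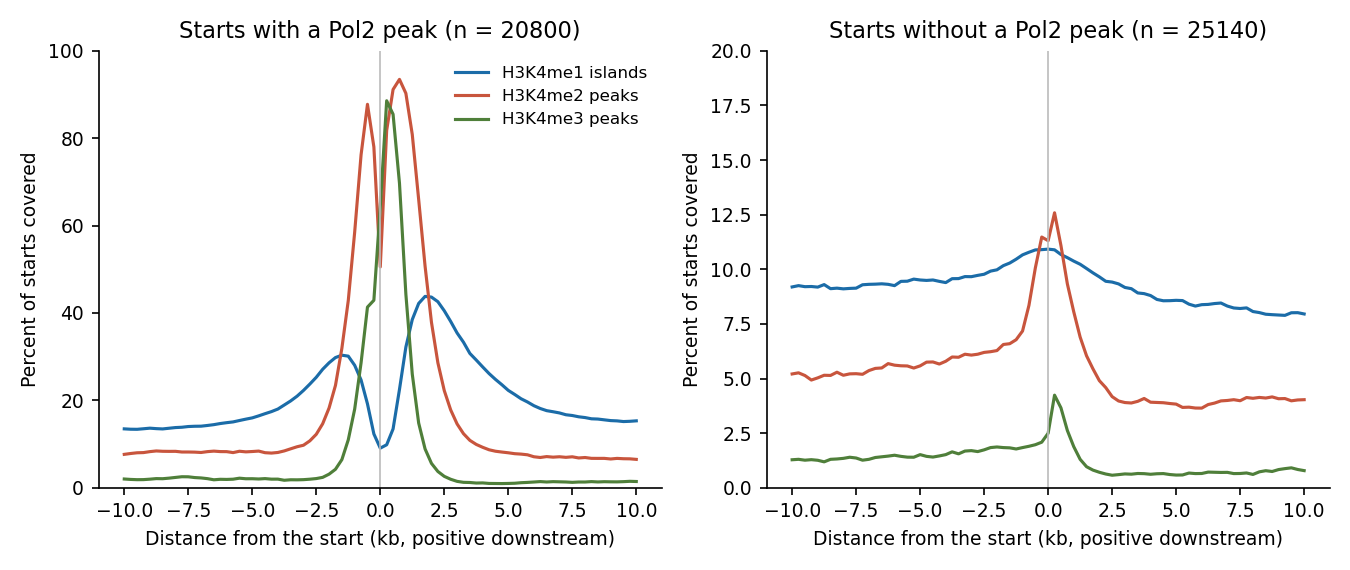
Percentage of transcription starts whose position at each distance (x axis, kb) was inside an H3K4me1 island, H3K4me2 peak or H3K4me3 peak, for 20800 starts with and 25140 starts without a Pol2 peak. The vertical axes differ: island coverage fell to 9.08% at starts with Pol2 and had its maximum of 43.8% 1.75 kb downstream, while at starts without Pol2 it was 10.9%.

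H3K4me2 fold enrichment, the pileup of a peak over its background as called by MACS2, gave opposite orders with and without regard to position. Over all peaks the median was lower in islands than outside, 6.74 (interval 6.67 to 6.79) against 7.47 (interval 7.36 to 7.59). Among TSS peaks it was higher in islands, 17.5 against 14.1, and so among distal peaks, 5.87 against 4.84. The pooled order was thus the reverse of that within both kinds of peak. TSS peaks, the stronger kind, made up 46.7% of the peaks outside islands and 20.8% of those inside. Peaks in islands were also wider, at medians of 1754 against 1084 bp near a TSS and 837 against 476 bp farther away.

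By deciles of fold enrichment, distal peaks were in islands in 66.1% of cases in the lowest decile, 81.8% in the seventh and 79.3% in the highest. For TSS peaks the relation had a trough: 57.3% of 382 peaks in the lowest decile, 29.5% in the sixth and seventh and 64.0% of 5576 peaks in the highest. In the highest decile, only 38.4% of TSS peaks had the summit inside the island. Their median width was 1871 bp, against 310 bp in the lowest decile. The share with the summit inside was thus well below the share touching an island. Width alone gave a wide range too, from 24.5% in islands for TSS peaks of 500 to 1000 bp to 92.1% for those over 4000 bp, although the summit was inside in only 21.0% and 49.2%. A wider peak has more chance to share 1 bp with an island.

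The share of TSS peaks in islands was 44.7% (interval 43.8 to 45.5) with H3K4me3 and 41.6% (interval 40.4 to 42.8) without. TSS peaks with H3K4me3 were wider, with medians of 2076 bp in and 1345 bp outside islands. Without H3K4me3 the medians were 850 and 616 bp. The 2 shares were not compared at equal width. Of distal peaks, 49.2% of 1479 with H3K4me3 and 72.9% of 44771 without were in islands. Seen from the peaks, H3K4me3 overlapped 69.2% of TSS peaks in islands and 66.5% of those outside, and Pol2 overlapped 70.3% of both. For distal peaks the values were 2.18% inside and 5.84% outside for H3K4me3, and 9.17% and 7.55% for Pol2. Pax6 was rare in both, at 0.941% of distal peaks inside (314 peaks) and 0.132% outside (17 peaks).

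Other libraries gave further readouts. Of distal peaks, 79.9% inside and 69.9% outside islands overlapped an H3K4me2 peak of the Pax6 knockdown cells. For TSS peaks these shares were 95.03% and 94.67%. Newborn lens H3K4me2 was over 85.2% of TSS peaks inside and 94.3% outside islands, and over 17.2% and 27.5% of distal peaks. The peaks outside called H3K4me1 islands of the cell line were thus more often shared with the lens, both near and far from a TSS. Islands with an H3K4me2 peak overlapped lens H3K4me2 in 41.9% of cases and those without in 12.6%. By position, these shares were 85.5% and 22.8% for islands within 2 kb of a TSS, and 23.0% and 11.8% for those farther away. In the Pax6 knockdown cells an H3K4me1 island, from a list of 18417, overlapped 50.8% of islands with H3K4me2 and 30.2% of those without.

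In the reference sequence, CpG observed over expected had a median of 0.310 in islands and 0.401 outside at TSS peaks, and 0.174 and 0.224 at distal peaks. The word TGANTCA, a match to AP-1 sites, was in 10.0% of distal windows in islands and 11.5% outside, against 6.15% and 5.86% in windows of the same length 2 kb away. Near a TSS it was in 5.38% inside and 4.23% outside, with 5.78% and 5.54% 2 kb away. The word was in 8.70% of all summit windows. GGGGCGG was in 3.13% of TSS windows inside and 4.07% outside. AP-1 words were thus more frequent at distal summits than 2 kb away, with or without an island.

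The H3K4me1 calls were not even along the genome, and this touched the shares above. On chromosome X, 32.8% of H3K4me2 peaks were in islands (interval 30.6 to 35.1), on chromosome 12 40.1% and on chromosome 15 81.2% (interval 79.8 to 82.5). Median input reads per kb of island were 8.64, 7.92 and 15.5 on the same chromosomes, and there were 2.64, 5.20 and 23.7 islands per Mb. H3K4me2 peaks numbered 10.1, 16.4 and 31.2 per Mb. In bins of 5 Mb, 46.0% of peaks were in islands where the median input was under 10 reads per kb (84 bins), 64.4% from 10 to 14 (195 bins), 77.8% from 14 to 18 (125 bins) and 78.9% above (17 bins). TSS peaks were less often in islands than distal peaks in all 4 classes, with 19.7% against 60.5% in the lowest, 44.99% against 73.2%, 67.5% against 81.3%, and 71.0% against 81.1% in the highest. The difference therefore ran from -40.8 to -10.1 percentage points. Islands held a peak in 83.7%, 79.1%, 74.7% and 69.7% of cases in the same order. Read depth of a region and its H3K4me1 level cannot be told apart from called islands.

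**Figure D4:**
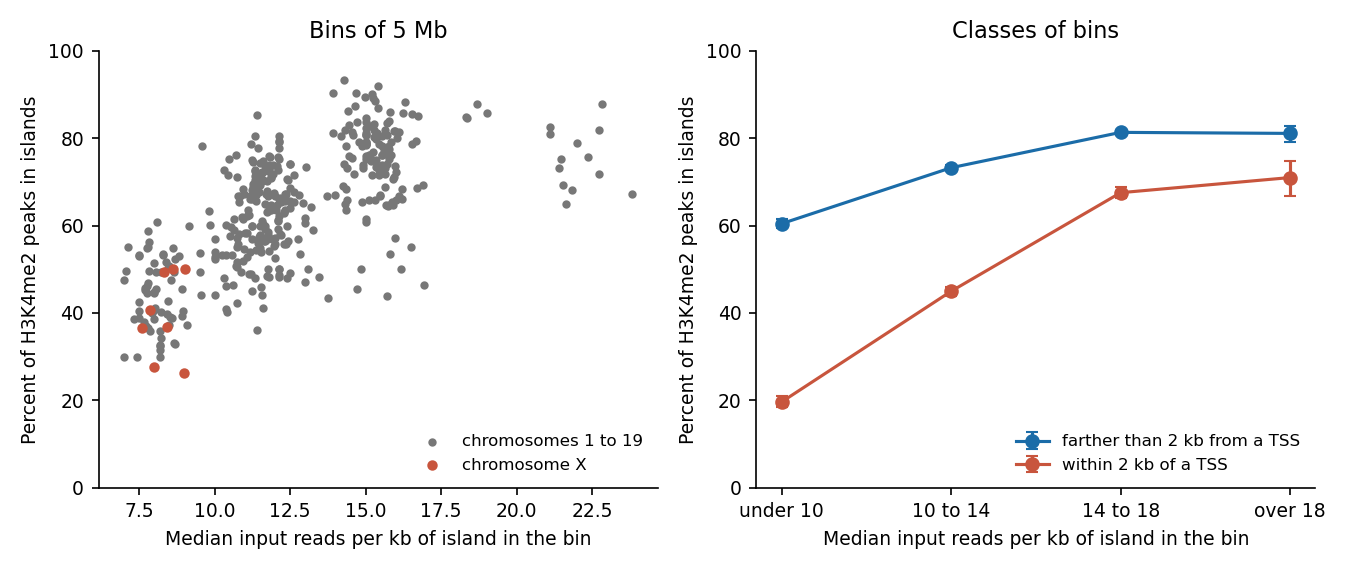
Left, each point is a bin of 5 Mb, with the median input reads per kb of its islands on the x axis and the percentage of its H3K4me2 peaks in islands on the y axis. Right, the same percentage for TSS and distal peaks in 4 classes of bins, with 95% intervals. Both shares were lowest in bins with under 10 input reads per kb (19.7% and 60.5%), and the TSS share was the lower in each class.

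H3K4me2 peaks without an island were mostly far from one. The nearest island edge was at a median of 14.7 kb for TSS peaks and 22.5 kb for distal peaks outside islands. An island was within 2 kb of 23.9% and 8.05% of them. Islands on both sides within 2 kb flanked only 215 of 11277 TSS peaks and 69 of 12875 distal peaks.

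The strongest peaks outside islands near a TSS were at Dennd2c, a Rab activator, with a fold enrichment of 33.6 and a width of 3158 bp, at Pick1, a PDZ-domain scaffold, with 31.4, and at Frmd5, a FERM-domain protein, with 30.5. Next came a peak at Rnasek and 0610010K14Rik with 30.3 and Ltbp1, a regulator of latent TGF-β, with 30.1. Their distance to an island ran from 0.869 kb at Rnasek to 26.0 kb at Ltbp1. All 5 overlapped H3K4me3, Pol2 and lens H3K4me2. Of all TSS peaks outside islands, 66.5%, 70.3% and 94.3% did. In the highest decile of fold enrichment, 93.4% of TSS peaks overlapped H3K4me3. High H3K4me2 at active starts was thus found with no H3K4me1 island over it.

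Of the 5 strongest distal peaks outside islands, the first was in Adam11, 13.1 kb from the nearest protein-coding start but 0.377 kb from the start of another Adam11 transcript when all transcript types were counted. It had a fold enrichment of 30.1. All 5 overlapped H3K4me3, 3 overlapped Pol2, and the other 4 had Ppara, Il21, Vsig10l and Tsks as their nearest genes. Of all distal peaks outside islands, 5.84% overlapped H3K4me3 and 7.55% overlapped Pol2. The 5 peaks were picked by fold enrichment, and in its highest decile 49.7% of distal peaks, in or out of islands, overlapped H3K4me3.

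The 5 strongest distal peaks in islands had folds of 30.4 to 33.9. They were 21.0 kb from Wdr5, a subunit of the H3K4 methylases, 75.8 kb from Wnt7b, a Wnt ligand, 2.13 kb from Nes, which encodes the intermediate filament nestin, 15.7 kb from Creb3l1 and 5.21 kb from Lrrc14. The one nearest Wdr5 was 0.363 kb from a start of the gene model Gm13421 when all transcript types were counted. The Nes peak of 6276 bp lay in an island of 16000 bp with 5 peaks, 545 ChIP reads and 207 input reads. The peak nearest Wnt7b was 6236 bp wide and touched an island of only 1200 bp. All 5 overlapped H3K4me3, Pol2 and lens H3K4me2, as the strongest peaks outside islands mostly did. Of all distal peaks in islands, 2.18%, 9.17% and 17.2% did. These 5 were also picked by fold enrichment, and 49.7% of distal peaks in its highest decile overlapped H3K4me3.

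Islands with 5 or more H3K4me2 peaks numbered 398, which became 254 with only peaks at −log10 q of at least 5 and 69 with peaks within 600 bp merged. The 15 with the most peaks carried 11 to 24 peaks each over 30000 to 90200 bp. The first was chr8:126062001-126106600 with 24 peaks. Next, with 21 each, came an island on chromosome 2 and chr8:126115801-126148600. Both chromosome 8 islands were in Gm20388 with no start inside. In these chromosome 8 islands, 83.2% and 81.1% of the length was in H3K4me2 peaks, the fold enrichment had medians of 8.28 and 8.08, and neighbouring summits were 1.71 and 1.69 kb apart in the median, with ranges of 0.557 to 4.899 kb and 0.517 to 1.976 kb. Of all words of 31 bases in them, 97.3% and 95.7% recurred within the island, and there were 53.8 and 54.0 CpGs per kb. No H3K4me3, Pol2 or Pax6 peak overlapped either, and lens H3K4me2 had 28 and 21 peaks there. These peaks were thus on CpG-dense sequence that recurred within each island, and the run of 166 bases above was shared between the 2 islands.

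**Figure D5:**
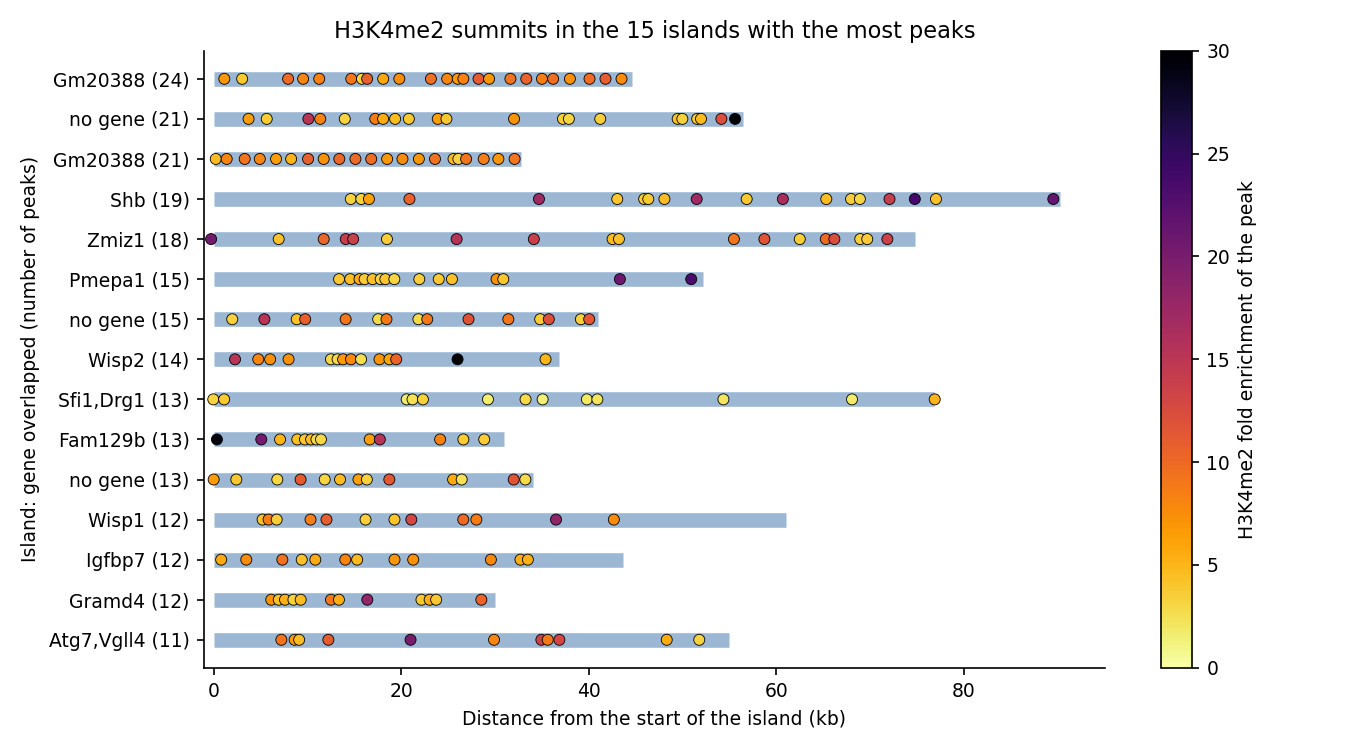
The 15 H3K4me1 islands with the most H3K4me2 peaks, drawn to scale from the island's start (x axis, kb), with a dot for each H3K4me2 summit coloured by its fold enrichment and the protein-coding genes overlapped at the left. Neighbouring summits lie 1.71 and 1.69 kb apart in the median in the Gm20388 islands, and 3.01 and 3.25 kb in those of Shb and Zmiz1.

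An island of 41000 bp with 15 peaks and no gene had 86.1% recurring words and 40.0 input reads per kb. Its centre was 71.2 kb from the start of the H3K27 methylase gene Ezh2. The other 12 islands had 0.228% to 2.51% recurring words. Over all 398 islands the median was 0.503%, and 6 exceeded 50%. Islands of many peaks with mostly recurring words were thus few, but they held 3 of the first 7 places. Recurrence was counted within an island only, so sequence repeated elsewhere in the genome was not measured.

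Among the islands with few recurring words, the widest island of the whole list was in Shb, an adaptor of receptor tyrosine kinases. It spanned 90200 bp with 19 peaks, 4345 ChIP reads and 2019 input reads, or 48.2 and 22.4 reads per kb, and included the Shb start. Zmiz1, a transcriptional coregulator, had 18 peaks in 74800 bp at 34.4 ChIP and 11.6 input reads per kb, with no start inside and 60.6% of the length in H3K4me2. Pmepa1, a membrane protein that dampens TGF-β signalling, had 15 peaks in 52200 bp at 36.2 and 15.3 reads per kb. These 3 islands thus differed in how much H3K4me2 filled them, from 39.0% in Shb to 60.6% in Zmiz1.

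Both Wisp2 and Wisp1, which encode matricellular CCN proteins, had such an island over their start. Wisp2 had 14 peaks in 36800 bp with 38.2 ChIP and 13.3 input reads per kb, 9 Pol2 peaks and 1 Pax6 peak. Wisp1 had 12 peaks in 61000 bp with 33.8 and 18.9 reads per kb and 17 Pol2 peaks. Newborn lens had only 1 and 2 H3K4me2 peaks in these islands, where it had 18 in that of Zmiz1. Fam129b held 13 peaks, 1 Pax6 peak and 7 lens peaks in 31000 bp at 46.4 and 14.97 reads per kb. Further islands lay in Igfbp7, which binds insulin-like growth factors, with 12 peaks, in Gramd4 with 12, and across Atg7, an autophagy enzyme, and Vgll4, a cofactor of TEAD factors, with 11.

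The remaining islands of the 15 had no such gene context or an unusual input. An island with 21 peaks on chromosome 2, whose strongest peak is shown above, had 28.4 ChIP and 15.4 input reads per kb. Its centre was 191 kb from the nearest start, Gm355. An island of 34000 bp on chromosome 6 with 13 peaks had no lens, Pol2 or H3K4me3 peak. Its centre was 70.8 kb from the start of Cav2, which encodes a caveolin. The island over Sfi1 and Drg1 had 13 peaks and only 9.46% of its length in H3K4me2. Its raw counts were 121 ChIP and 227 input reads per kb. Its deposited fold over control was 1.14, against a median of 3.51 over all islands.

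Gene lists were described by the share of genes with both marks within 2 kb of a same start, which was 33.1% of all protein-coding genes, beside 58.3% with H3K4me2 and 36.1% with an island. H3K4me2 was at 11 of 14 lens lineage genes. Both marks were at 4, Pax6, Six3, Gata3 and Mab21l1, a share near that of all genes. H3K4me2 with no island was at 7 of the 14 and at 24.9% of all genes. Pitx3, needed for lens development, had a promoter peak with a fold of 29.3 and no island over the gene. Prox1 and Meis2, further lens regulators, had no island at the start, with promoter folds of 25.02 and 26.7, yet 4 of 5 and 6 of 7 of the H3K4me2 peaks over the gene were in islands. The islands over Meis2 held 808 ChIP and 596 input reads. At Prox1 and Meis2 islands were thus over the gene but not within 2 kb of a start.

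Of 16 crystallins, the structural proteins of the lens, 5 had both marks at a start: Cryaa, Cryab, Cryba2, Cryba4 and Crybb1. The other 11 had neither mark there. Crybb1 and the neighbouring Cryba4 shared an island with 8 H3K4me2 peaks, and all 7 peaks over Crybb1 were in it, with 849 ChIP and 281 input reads. Among genes of lens fibre structure, Lctl and Tdrd7 had both marks. Birc7 and Grifin had an island at the start with no H3K4me2, as did 2.69% of all genes.

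All 12 housekeeping genes had H3K4me2 and 11 had both marks, the exception being Hprt on chromosome X. Pgk1, also on chromosome X, had both. Ywhaz had an island with 9 H3K4me2 peaks. All 19 genes of a list of H3K4 methylases, demethylases and proteins of their complexes had H3K4me2 and H3K4me3. The list also holds the H3K27 demethylase Kdm6a. Both H3K4me2 and an island were at 8 of these genes, among them Setd1a, Wdr5 and Men1. Ash2l, Cxxc1, Kdm5a, Kdm5b, Kdm6a and Paxip1 had no island over the gene. All 9 AP-1 genes had H3K4me2 and 5 had both marks, with 5 peaks in an island of Atf3. All 11 TALE homeobox genes had H3K4me2 and 6 had both marks. Of 19 Ets genes, 16 had H3K4me2 and 11 had both.

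Mesenchymal markers had both marks in 7 of 12 genes, including Vim with an island of 6 H3K4me2 peaks and Col1a2 with 702 ChIP and 568 input reads in islands. Epithelial markers had both in 3 of 10, Krt8, Krt14 and Tjp1, and corneal epithelium markers in 3 of 6. Cdh1 had no mark at its start but 6 H3K4me2 peaks over the gene, all in islands. Of other cell types, both marks were at 2 of 11 neuron markers, 1 of 8 retina and pigment epithelium markers and 0 of 10 blood cell, 0 of 7 endothelium and 0 of 7 liver markers.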

How the data were processed

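ChIP-seq of control αTN4 cells was analysed from the lists the authors deposited, with 1 library per mark. Reads had been aligned to mm9 with Bowtie, and the study's methods state that peaks in blacklisted regions were removed, although 19 islands with over 100 input reads per kb remain in the H3K4me1 list. H3K4me1 islands were called by the authors with SICER (window 200 bp, gap 600 bp, FDR 0.001) and the other marks with MACS2 at default settings. Each deposited island has a ChIP read count, a control read count (the control library is not named there, and its reads are called input here), a p-value, an FDR and the fold over control as a ratio. For each peak the deposited values were a score, fold enrichment as a ratio, −log10 of p and q, and the position of the summit. The total depth of the libraries was not used, and that of H3K4me2 is unknown. Region ends of islands were taken as inclusive.

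Reads per kb are raw counts over island width, not scaled to library depth, so a ChIP density cannot be set directly against an input density. The deposited fold over control can be above 1 where raw input counts pass ChIP counts. Starts were the 46006 distinct starts of protein-coding transcripts of GENCODE vM1. RefSeq starts of mm9, which the study used, were not used here. Sequence came from the mm9 genome. Overlap meant at least 1 bp. Shares have Wilson intervals and medians have intervals from binomial order statistics, at 95%. With 1 library per mark no test was made. Scripts ran in Python 3.11.15 with pandas 2.3.3, NumPy 2.4.6 and pysam 0.24.0, and were tested on simulated data. Bins of 5 Mb needed at least 20 islands.

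Named regions were the 15 islands with the most H3K4me2 peaks, the 5 with no peak and the most ChIP reads, and the 5 strongest H3K4me2 peaks of each of 3 kinds (outside islands near a TSS, outside and distal, inside and distal). The regions, gene lists and this rule were chosen with earlier results of these data known. The words of 31 bases, the input classes and the starts of all transcript types for named peaks were added afterwards. Alternatives covered the overlap rule, stricter lists, the promoter window, the annotation and the merging of peaks. RNA-seq and the knockdown H3K4me3 list were not analysed here. The result of 1 gene of the lens fibre list is not reported here.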

Additional observations from a re-analysis of the deposited data

How the results depend on the processing

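No paired analysis was possible because each mark is 1 list and no result comes from a test. Counting only summits inside islands gave 69.8% of islands with a peak, 58.2% of peaks in islands, a TSS minus distal difference of -41.3 points, a ratio of ChIP reads per kb of 1.17 and an in over out ratio of fold enrichment of 0.687. Requiring at least 50% of the peak gave 71.0% and 60.0%. With islands at FDR up to 1e-06 the shares were 80.6% and 61.5% and the density ratio 1.19. With peaks at −log10 q of at least 5 they were 72.2% of islands, a difference of -30.5 points, a density ratio of 1.20, a fold ratio of 0.816 and 254 islands with 5 or more peaks. Merging peaks within 600 bp left 69 such islands. The TSS minus distal difference was -31.4 points with a window of 1 kb, -22.4 with 5 kb and -26.0 with starts of all gene types. The following were chosen after seeing the data. Bins with 10 to 14 input reads per kb gave 64.4% of peaks in islands and a fold ratio of 0.872. The fold ratio, 0.902 over all peaks, reversed to 1.24 in TSS peaks and 1.21 in distal peaks, as fewer peaks in islands were near a TSS. Of 50 alternative values, 27 stayed within the interval or within 1.5 times the count, 21 moved beyond these limits and 2 reversed. The 27 include every gene list count with a window of 1 kb, some of them very small. For the other results most alternatives moved. The other causes were not tested.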

Other observations

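The islands with no H3K4me2 peak and the most ChIP reads were mostly regions with very high input. An island of 38400 bp at the start of chromosome 9, over several Gm gene models such as Gm10722, had 336 ChIP and 593 input reads per kb. On chromosome 2, the 2 islands at Gm10800 and Gm10801 had 1131 and 346 ChIP against 1251 and 439 input reads per kb. These are raw counts, and the deposited folds over control were 1.21, 1.93 and 1.68 in the same order. These islands were not free of other marks: the one on chromosome 9 held 40 knockdown and 39 lens H3K4me2 peaks, 18 H3K4me3 and 26 Pol2 peaks, and those at Gm10800 and Gm10801 held 1 knockdown and 1 lens H3K4me2 peak each. Input passed 100 reads per kb in 19 islands, which held 0.881% of the ChIP and 2.37% of the input reads in islands, and 4 of them had an H3K4me2 peak. Among islands with at most 30 input reads per kb, a limit chosen after seeing the data, those with no H3K4me2 peak and the most ChIP reads lay in Nuak1, Nt5e, Wnt7a, Fbln2 and Ank. The island in Wnt7a, a Wnt ligand gene, had 25.3 ChIP and 11.5 input reads per kb over 11600 bp. That in Ank, a pyrophosphate transporter gene, had 37.8 and 16.4 over 7600 bp and was the one of the 5 with newborn lens H3K4me2, at 2 peaks. Knockdown H3K4me1 islands covered between 61.1% and 100% of their length, and no knockdown H3K4me2 peak lay in any of the 5.

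By gene structure, 45.9% of distal H3K4me2 summits in islands and 31.8% of those outside were in introns, and 51.5% and 65.6% were between genes. Near a TSS, 59.7% of summits in islands and 47.6% of those outside were in introns, and 25.1% and 38.2% lay between genes. Islands with more H3K4me2 peaks more often overlapped other factors. Pol2 was in 0.353% of islands without a peak, 16.4% with 1, 27.8% with 3 and 50.5% with 5 to 9, and Pax6 in 0.353%, 0.872%, 2.50% and 6.72%, while the median width of these classes rose from 2800 to 14400 bp. The part of width in this was not tested.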
